A study of Mus musculus with 4 samples.

Results

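The 10 genes studied here mark pericytes and were followed in sorted lung cells with and without the maintenance DNA methyltransferase gene Dnmt1. They are Cspg4, Mcam, Rgs5, Gucy1a1, Gucy1b1, Kcnj8, Abcc9, Ndufa4l2, Cox4i2 and Higd1b, and were taken by gene symbol from a count table of 31247 genes, in which all 10 were found. RNA was sequenced from cells that carried a Pdgfrb-GFP reporter and were sorted by flow cytometry from mouse lungs on postnatal day 7, at about 300000 to 350000 cells per sample. The 2 control libraries (WT) came from mice labelled wild type with the reporter. The 2 mutant libraries (CKO) carried the same PDGFRb-GFP reporter together with Tbx4-rtTA and Tet-O-Cre, and their Dnmt1 alleles are labelled D/D. Cre is thus driven through a Tbx4 transgene of the lung mesenchyme and is not limited to pericytes. The WT label names neither rtTA nor Cre, so loss of Dnmt1 and presence of these transgenes cannot be told apart. Nothing in the labels ties a library to a separate animal or litter, so each p-value rests on the spread of these 4 libraries. They are called A and B within each genotype, in column order, and paired values below are given in that order.

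Pericytes are mural cells that wrap capillaries, share the basement membrane with the endothelium and are recruited through PDGF receptor beta. In lung they lie beside alveolar myofibroblasts and fibroblasts that also express Pdgfrb, so a Pdgfrb reporter gathers pericytes together with these cells. The markers fall into 4 kinds by function: surface molecules, a regulator of G protein signalling, subunits of receptors and channels that set vascular tone, and mitochondrial proteins linked to low oxygen.

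Libraries held between 23071657 and 26420648 counted reads. Within each genotype the counts of A and B differed beyond sampling noise (chi-square over its degrees of freedom 18.1 in WT, 32.4 in CKO), so none was counted as a duplicate. Dnmt1, the targeted gene, was at 144 and 115 CPM (a gene's reads relative to the library's scaled total) in WT and at 78.1 and 29.5 CPM in CKO. It was lower in both CKO libraries and still present in each, and the difference did not pass the test used below (edgeR adjusted p = 0.310). Counts cover the whole gene, exons outside a deletion included. CKO A alone held reads of the Y-linked gene Ddx3y (2494, against 0 in each other library), and Xist, the RNA of the inactive X chromosome, was at 849 and 671 CPM in WT and 164 and 1081 in CKO. CKO A and CKO B were therefore not repeats of the same RNA, while for the WT libraries the spread may be technical. CKO A differed from CKO B both in its Y-linked reads and in its higher Dnmt1 level. Fits without CKO A or without CKO B cannot tell these differences apart. The column names of all libraries but WT A open with the same number, whose meaning is not stated, so the fit without WT A is the comparison within that number. WT B had reads on the most genes, 27643 against 21883 to 22532.

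The pericyte markers did not share one direction. Gucy1a1, a subunit of the nitric oxide receptor, fell 1.62-fold, and Ndufa4l2, a hypoxia-inducible mitochondrial protein gene, rose 2.10-fold. The other 8 members did not pass the test. Of all 10 members, each of which had enough reads to be tested, 1 was higher and 1 lower in CKO at an adjusted p under 0.05 (edgeR's quasi-likelihood test, Benjamini-Hochberg over all genes), where 7.61% of the 15210 genes tested were called, 4.85% higher and 2.75% lower. The log2 changes of 6 members lay above 0 and those of 4 below, with a median of 0.27 beside -0.01 for all genes tested. CKO and WT did not overlap in CPM for 7 members (4 higher, 3 lower), where 57.1% of all genes tested did not overlap. At an unadjusted p under 0.05 there were 3 members above and 3 below, beside 25.2% of all genes. The summed level of the 10 markers was 749 and 664 CPM in WT and 706 and 756 CPM in CKO, so that the genotypes overlapped. Mcam made up 28.5% to 37.7% of that sum, and without it the sums were 513, 475, 440 and 491 CPM in the same order. In bulk RNA, fewer cells of a type and less RNA per cell cannot be told apart.

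**Figure D1:**
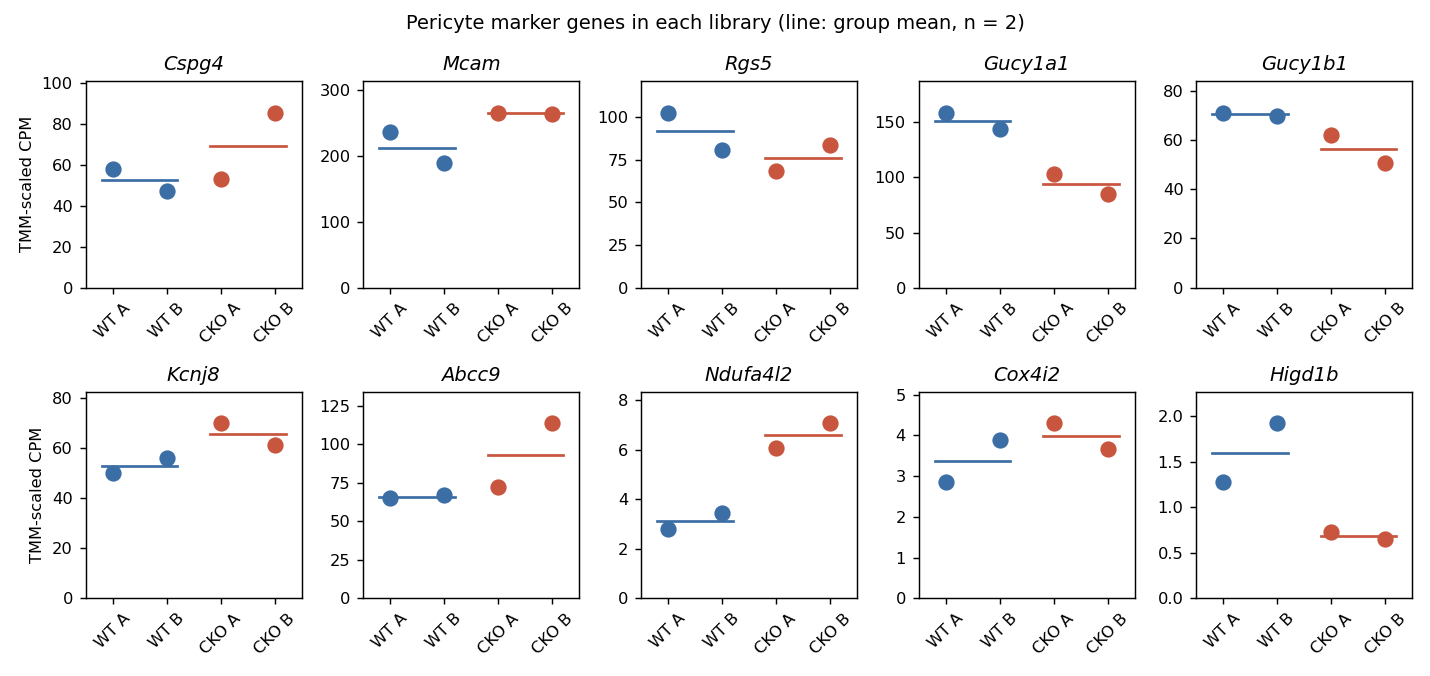
Level of each pericyte marker in scaled CPM (vertical axis, from 0) in the 4 libraries (horizontal axis, blue WT, red CKO), with a line at each group's mean. Gucy1a1 lies lower in both CKO libraries (103 and 84.7) than in both WT libraries (159 and 144), Ndufa4l2 lies higher, and the groups overlap for Cspg4, Rgs5 and Cox4i2.

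Levels of different genes were compared per kilobase of merged exon. In WT, Mcam was highest at 63.5 ± 9.79 CPM per kilobase (SD, n = 2). Gucy1a1 (21.8 ± 1.48), Kcnj8 (20.8 ± 1.67) and Rgs5 (20.1 ± 3.43) followed, within each other's spread, and Gucy1b1 (18.0 ± 0.222) lay within the spread of Rgs5. Abcc9 stood at 7.87 ± 0.172 CPM per kilobase, and Cspg4 (4.42 ± 0.628) and Cox4i2 (4.28 ± 0.926) did not differ beyond their spread. Ndufa4l2 (2.85 ± 0.402) and Higd1b (1.89 ± 0.543) were lowest. In CKO the order per kilobase was Mcam (79.2 ± 0.390), Kcnj8 (25.8 ± 2.39), Rgs5 (16.7 ± 2.41), Gucy1b1 (14.3 ± 2.03), Gucy1a1 (13.5 ± 1.85), Abcc9 (11.1 ± 3.48), Ndufa4l2 (6.01 ± 0.636), Cspg4 (5.82 ± 1.93), Cox4i2 (5.06 ± 0.569) and Higd1b (0.809 ± 0.0636). Gucy1a1 thus stood at rank 2 in WT, within the spread of Kcnj8 and Rgs5, and at rank 5 in CKO. In CKO it did not differ from Gucy1b1, Rgs5 or Abcc9 beyond their spread. The per-length median of the 10 markers lay between 11.7 and 12.9 CPM per kilobase in the 4 libraries, below that of 11 alveolar myofibroblast markers (42.5 to 81.4) and above that of 14 endothelial markers (1.72 to 3.04). For 14 smooth muscle markers this median was 31.1 to 45.4 CPM per kilobase. For 20 further pericyte genes, described below, it was 4.04 to 6.82, so the value depends on the markers chosen. The sorted cells, labelled myofibroblasts, therefore held pericyte marker RNA in every library, with the myofibroblast and smooth muscle markers higher. Higd1b and Cox4i2, markers used for lung pericytes in particular, were among the lowest of the 10 per length, at 15 to 51 and 65 to 113 reads per library.

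The surface markers Cspg4 and Mcam did not pass. Cspg4 encodes the proteoglycan NG2 (chromosome 9, 56865033 to 56899870, GRCm38). WT had 58.1 and 47.5 CPM and CKO 53.2 and 85.8. CKO B alone was above the WT libraries, and CKO A lay between them. The log2 difference was 0.40 ± 0.24 (SE, n = 2 per genotype, edgeR adjusted p = 0.371). It passed when CKO A was left out (0.73, edgeR adjusted p = 0.00919) and was 0.02 when CKO B was left out, so the value rests on CKO B.

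Mcam, also known as CD146, is an adhesion molecule of mural and endothelial cells (chromosome 9, 44134469 to 44142727). WT had 236 and 190 CPM and CKO 266 and 264. Both CKO libraries lay above both WT libraries, and the spread was mostly in WT. The log2 difference of 0.32 ± 0.13 did not pass (edgeR adjusted p = 0.182). The first 17 bases of its exons are shared with the antisense gene Gm10687, which had 24 to 47 reads per library and did not pass either (log2 0.51), and whose part in the Mcam value was not tested. Mcam had the highest level per length of the 10, and genes outside the lists with a pattern most like it included Foxl1, Slc40a1, Phf11d and Ankrd6, at Euclidean distances of 0.02 to 0.06 in centred log2 CPM over 4 libraries. With so few libraries such likeness is common, and 345 of 11722 genes compared lay within a distance of 0.2.

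Rgs5 shortens signalling of G protein-coupled receptors by speeding GTP hydrolysis, and is one of the most used pericyte markers (chromosome 1, 169655501 to 169695813). WT had 103 and 80.5 CPM and CKO 68.2 and 83.7. CKO B lay above WT B, so the groups overlapped. The log2 difference was -0.27 ± 0.16 (edgeR adjusted p = 0.330) and ran from -0.42 to -0.07 over the other settings tried, none of which called it. Its relative Rgs4 was far lower per kilobase, with 14 to 40 reads per library, while Rgs16, which does the same to other receptors and is no pericyte marker, fell from 73.7 ± 2.53 to 47.4 ± 5.28 CPM (SD, n = 2, 1.56-fold, edgeR adjusted p = 0.0225). That call was lost when either WT library was left out. Rgs2, a regulator that cyclic GMP signalling activates, had a WT mean of 108 ± 1.95 CPM and a CKO mean of 144 ± 2.68 and did not pass (edgeR adjusted p = 0.0546).

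The nitric oxide receptor is soluble guanylate cyclase, a pair of an alpha and a beta subunit that makes cyclic GMP and relaxes mural cells. Its most abundant subunit transcripts here were Gucy1a1 and Gucy1b1, which lie beside each other on chromosome 3, 17.7 kilobases apart with 0 annotated genes between them. The sequences upstream of every annotated start are shown 5′ to 3′ on the minus strand for the called member Gucy1a1 (chr3:82145790-82145900, GRCm38.p6, RefSeq) and its neighbour Gucy1b1 (chr3:82074712-82074961), with each CG, the pair of bases that Dnmt1 keeps methylated, in capitals.
Gucy1a1: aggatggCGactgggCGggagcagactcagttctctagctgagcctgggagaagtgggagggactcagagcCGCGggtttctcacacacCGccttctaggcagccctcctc
Gucy1b1: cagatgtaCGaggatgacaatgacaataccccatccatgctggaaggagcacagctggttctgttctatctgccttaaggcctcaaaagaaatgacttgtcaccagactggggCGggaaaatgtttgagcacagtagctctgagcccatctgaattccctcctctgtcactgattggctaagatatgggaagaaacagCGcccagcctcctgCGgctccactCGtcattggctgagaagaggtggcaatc
These stretches hold 5 CG each, in 111 and in 250 bases. Over the RefSeq promoter windows of 300 bases, both starts of Gucy1a1 had 14 and 15 CG and that of Gucy1b1 had 6, and 36.3%, 34.6% and 56.4% of all 32851 windows hold as many or more (median 7). CG reads the same on both strands. Methylation was not measured here.

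Gucy1a1 (chromosome 3, 82092427 to 82145789) reached 159 and 144 CPM in WT and 103 and 84.7 in CKO. Both CKO libraries were lower than either WT library, and the CKO mean was 61.8% of the WT mean. The log2 difference was -0.69 ± 0.13 (SE, n = 2 per genotype, edgeR adjusted p = 0.0205). Leaving out WT A, which keeps the libraries of the shared column number, ended the call (-0.61, edgeR adjusted p = 0.0874), as did leaving out WT B (-0.75, edgeR adjusted p = 0.0602). The call held when CKO A, the library with Y-linked reads, was left out (-0.81, edgeR adjusted p = 0.00312) and when CKO B was (-0.55, edgeR adjusted p = 0.0497). For Gucy1a1 the authors' deposited table lists -0.66 (log2) with an adjusted p of 0.0075.

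Gucy1b1 (chromosome 3, 82032006 to 82074689) reached 71.2 and 69.9 CPM in WT and 61.9 and 50.6 in CKO. These values did not overlap either, but the test was not passed (log2 difference -0.33 ± 0.13, edgeR adjusted p = 0.165). It passed without CKO A (-0.45, adjusted p = 0.0440). Per kilobase, Gucy1a1 was 1.26 times Gucy1b1 in WT A and 1.16 times in WT B, but 0.937 times in CKO A and 0.943 times in CKO B, so that the balance of both subunits differed between the genotypes by more than between replicates. No test was run on this ratio, which holds the Gucy1a1 values called above. As a scale for such separation, 57.1% of all genes tested did not overlap in CPM between the genotypes. The other cyclase subunits were scarce. Gucy1a2 had 18 to 40 reads and Gucy1b2 had 9 to 39 reads per library, and per kilobase Gucy1a1 was 46.8 to 143 times Gucy1a2.

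Other genes of nitric oxide and cyclic GMP signalling moved in both directions. Of 26 listed genes, both receptor subunits included, 24 were tested, and 1 was higher and 2 lower in CKO. Of all genes tested 4.85% were higher and 2.75% lower. The median log2 change of the list was 0.09. Its sums were 2621 and 2357 CPM in WT and 2166 and 1923 CPM in CKO, with Pde5a the largest part. The lower genes were Gucy1a1 and Npr2, a membrane guanylate cyclase that is the receptor of C-type natriuretic peptide, which fell from 125 ± 4.50 to 89.9 ± 9.16 CPM (SD, n = 2, 1.39-fold, edgeR adjusted p = 0.0495). Npr2 was no longer called when WT A, WT B or CKO B was left out. Nos1, a nitric oxide synthase of neurons and muscle, rose from 0.201 ± 0.0359 to 1.72 ± 0.124 CPM, or from 4 and 6 reads in WT to 43 and 42 in CKO (edgeR adjusted p = 0.0130), and lost that call without WT B. Pde5a, the phosphodiesterase that degrades cyclic GMP in smooth muscle, had a WT mean of 1454 ± 116 CPM and a CKO mean of 1071 ± 160 and did not pass (adjusted p = 0.132). Prkg1, the cyclic GMP-dependent kinase, was at 61.6 and 46.4 CPM in WT and 48.5 and 62.0 in CKO, with groups that overlapped.

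Kcnj8 and Abcc9 encode the pore and the sulfonylurea receptor of the vascular ATP-sensitive potassium channel, which couples the energy state of mural cells to their tone. They too are neighbours, on chromosome 6, 16.2 kilobases apart with 0 annotated genes between them. Their upstream sequences (Kcnj8 chr6:142571615-142571864, Abcc9 chr6:142702316-142702524, GRCm38.p6, RefSeq, minus strand) are shown as the second neighbouring pair, CG in capitals.
Kcnj8: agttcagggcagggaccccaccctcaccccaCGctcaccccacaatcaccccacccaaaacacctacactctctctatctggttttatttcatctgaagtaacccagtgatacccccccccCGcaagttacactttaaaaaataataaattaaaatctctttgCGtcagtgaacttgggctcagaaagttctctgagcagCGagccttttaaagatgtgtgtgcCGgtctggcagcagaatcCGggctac
Abcc9: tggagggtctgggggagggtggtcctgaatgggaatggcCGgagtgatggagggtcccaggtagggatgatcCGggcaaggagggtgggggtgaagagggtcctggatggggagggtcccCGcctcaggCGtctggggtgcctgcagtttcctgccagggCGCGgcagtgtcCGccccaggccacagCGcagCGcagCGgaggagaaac
They hold 6 CG in 250 bases and 10 CG in 209 bases. The windows of 300 bases hold 9 and 16 CG, a number reached by 45.8% and 33% of all windows. Of the remaining markers, the windows of Rgs5, Cspg4 and Mcam hold 6, 17 and 29 CG. Ndufa4l2, Cox4i2 and Higd1b were not matched among the 7 members with a window.

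Kcnj8 (chromosome 6, 142564837 to 142571614) had 50.01 and 56.0 CPM in WT and 70.04 and 61.4 in CKO. Both CKO libraries lay above both WT libraries, but the test was not passed (log2 difference 0.31 ± 0.12, edgeR adjusted p = 0.168) and was not called in any other setting tried. Abcc9 (chromosome 6, 142587862 to 142702315) had 64.8 and 66.9 CPM in WT and 72.3 and 114 in CKO. CKO A lay just above WT and CKO B stood apart. The log2 difference of 0.50 ± 0.21 did not pass (edgeR adjusted p = 0.206), but it was 0.81 when CKO A was left out (edgeR adjusted p = 0.00134) and 0.15 when CKO B was (edgeR adjusted p = 0.532). An antisense gene that shares 158 exon bases with Abcc9, 5330439B14Rik, had 1 read in WT B and 0 in the others. Per kilobase, Kcnj8 was 2.53 and 2.75 times Abcc9 in WT A and WT B, 3.18 times in CKO A and 1.78 times in CKO B, so the CKO libraries lay on either side of WT. The pancreatic channel genes Kcnj11 and Abcc8 had 0 to 2 and 0 to 5 reads per library and were not tested.

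**Figure D2:**
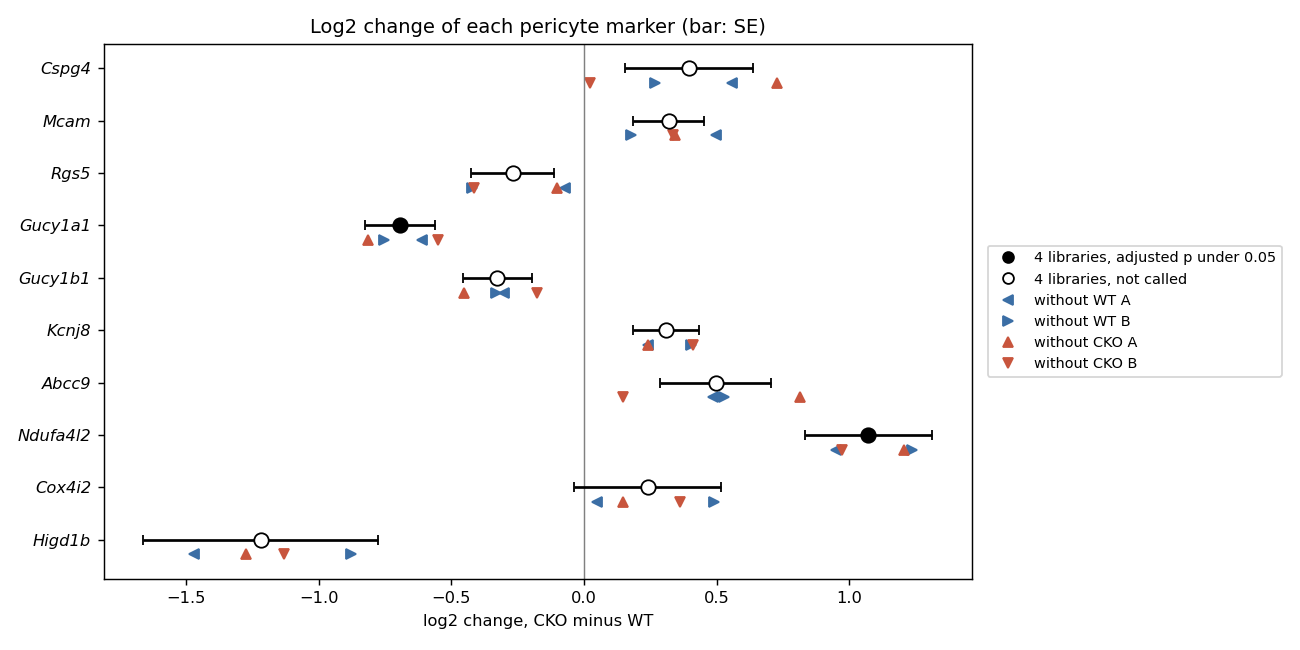
Log2 change of each pericyte marker, CKO minus WT (horizontal axis), with its standard error from all 4 libraries (circles, filled where the adjusted p was under 0.05) and from fits that leave out 1 library each (triangles). Gucy1a1 (-0.69) and Ndufa4l2 (1.07) are filled, and the triangles of Cspg4 and Abcc9 spread most between the fits without CKO A and without CKO B.

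Ndufa4l2 was the member that rose. It encodes a relative of the respiratory chain protein Ndufa4 that is induced by low oxygen and lowers mitochondrial respiration (chromosome 10, 127514967 to 127517154). WT had 64 and 91 reads (2.81 and 3.43 CPM) and CKO 160 and 164 (6.09 and 7.08 CPM). Both CKO libraries were above both WT libraries, and the log2 difference was 1.07 ± 0.24 (SE, n = 2 per genotype, edgeR adjusted p = 0.0361). The call ended when WT A (0.95, edgeR adjusted p = 0.182), WT B (1.24, edgeR adjusted p = 0.123) or CKO B (0.97, edgeR adjusted p = 0.0739) was left out, and limma-voom gave an adjusted p of 0.0506. For Ndufa4l2 the authors' deposited table lists 1.11 (log2) with an adjusted p of 0.0192. The last 32 bases of Ndufa4l2 are shared with exons of Shmt2, a mitochondrial serine enzyme gene on the opposite strand that also rose (from 47.4 ± 2.47 to 68.8 ± 3.13 CPM, SD, n = 2, 1.45-fold, edgeR adjusted p = 0.0300). The Shmt2 call was lost when either WT library was left out. Shmt2 had 1119 to 1749 reads per library, whether strand was used in counting is not stated, and the part of Shmt2 reads in the Ndufa4l2 counts was not tested.

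Cox4i2, the oxygen-responsive isoform of a cytochrome c oxidase subunit (chromosome 2, 152754173 to 152765037), had 2.85 and 3.89 CPM in WT and 4.30 and 3.67 in CKO. The groups overlapped, and the log2 difference was 0.24 ± 0.28 (edgeR adjusted p = 0.641). Higd1b, of a family of hypoxia-inducible mitochondrial proteins (chromosome 11, 102835849 to 102838040), had 29 and 51 reads in WT and 19 and 15 in CKO. The WT mean was 1.60 ± 0.460 CPM and the CKO mean 0.685 ± 0.0538 (SD, n = 2), the lowest CKO share of the 10 members at 42.9% of the WT mean. The log2 difference of -1.22 ± 0.44 did not pass (edgeR adjusted p = 0.135) and was not called in any other setting. At so few reads the standard error was the largest of the 10.

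The ubiquitous relatives of these mitochondrial genes were far higher. Per kilobase, Cox4i2 was 4.85% to 6.30% of Cox4i1 in all 4 libraries, with overlapping groups. Ndufa4l2 was 5.78% and 6.41% of Ndufa4 in WT and 9.36% and 14.1% in CKO, both CKO values above both WT values. Higd1b was 21.2% and 31.0% of Higd1a in WT and 9.04% and 9.75% in CKO. Of the relatives, Cox4i1 (116.6 ± 6.65 CPM in WT, 150.4 ± 2.58 in CKO, edgeR adjusted p = 0.0818), Ndufa4 (adjusted p = 0.515) and Higd1a (adjusted p = 0.288) did not pass.

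**Figure D3:**
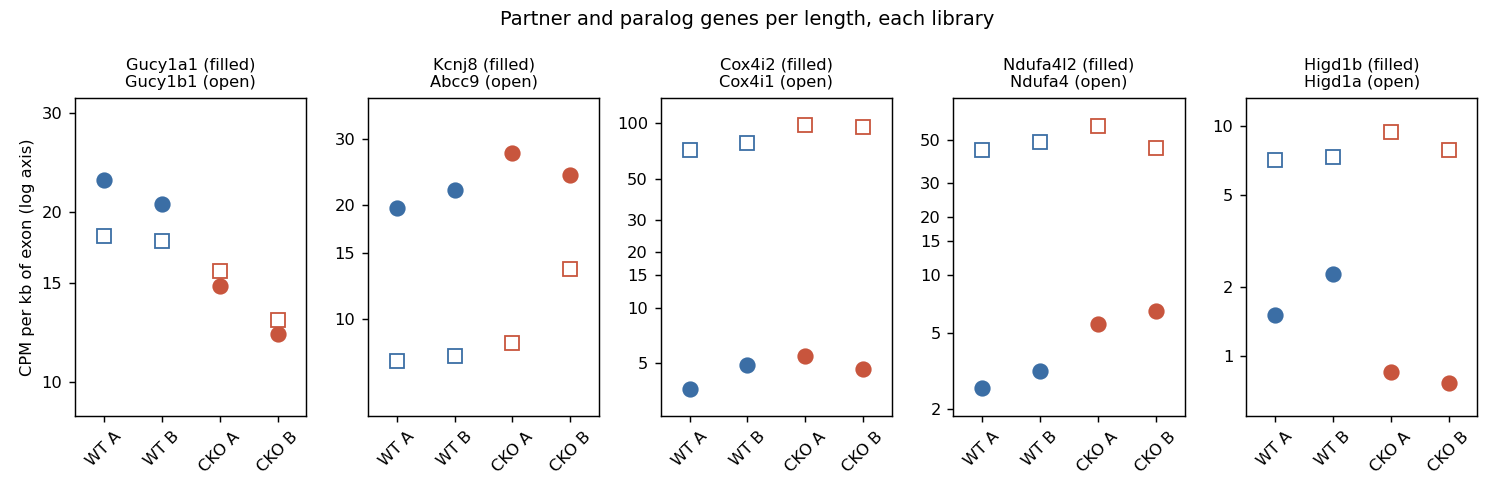
CPM per kilobase of merged exon (vertical log axes, a scale for each panel) for subunit partners and for members with their relatives, in each library (horizontal axis, blue WT, red CKO). Gucy1a1 lies above Gucy1b1 in both WT libraries and just under it in both CKO libraries, and Cox4i2, Ndufa4l2 and Higd1b lie below their relatives in all 4.

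Genes of the hypoxia response outside the 10 markers moved in both directions. Of 19 listed and tested, 2 were higher (Aldoa, a glycolytic enzyme gene, 1.47-fold, and Ndrg1, a stress-induced gene, 1.96-fold) and 1 lower (Car9, a carbonic anhydrase gene and a common marker of hypoxia, 2.83-fold, edgeR adjusted p = 0.0416). Beside these counts, 4.85% of all genes tested were higher and 2.75% lower. The median log2 change of the 19 genes was 0.00. Hif1a, the oxygen-regulated transcription factor gene, was at 87.8 and 90.5 CPM in WT and 90.6 and 94.1 in CKO. Aldoa and Ndrg1 lost their calls when either WT library was left out, and Car9 was no longer called when WT B, CKO A or CKO B was left out.

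Further pericyte genes from a list outside the 10 moved upward where they passed. Their summed level, mostly from Cd248, P2ry14 and Pdgfrb, was lower in both CKO libraries. Of 20 genes 19 were tested, 4 were higher and 0 lower, where 4.85% of all genes tested were higher and 2.75% lower. The median log2 change was 0.34. Their sums were 3141 and 2783 CPM in WT and 2647 and 2343 CPM in CKO. Cd248, the largest part, was at 1425 and 1156 CPM in WT and 1183 and 882 in CKO. Its groups overlapped and it did not pass (edgeR adjusted p = 0.322). The sums therefore follow a few abundant genes and not the list as a whole. Art3, an ADP-ribosyltransferase family gene, rose from 12 and 33 reads in WT to 184 and 257 in CKO (log2 difference 3.32, edgeR adjusted p = 0.00792). Plxdc1, a plexin domain protein gene, rose from 7 and 9 to 54 and 50 reads (6.41-fold), Steap4, a metalloreductase gene, from 55 and 84 to 157 and 269 reads (3.13-fold), and S1pr3, a receptor for sphingosine phosphate, from 39.0 ± 8.80 to 82.0 ± 12.6 CPM (SD, n = 2, 2.10-fold). Art3 was called in each fit without 1 library, Plxdc1 lost its call without WT B, S1pr3 without WT B and without CKO B, and Steap4 in all but the fit without CKO A. Among the 15 that did not pass were Pdgfrb, the sorted receptor, at 492 ± 20.6 CPM in WT and 345 ± 40.0 in CKO (edgeR adjusted p = 0.0546), Foxs1, a forkhead transcription factor gene, with 85 and 115 reads in WT and 415 and 913 in CKO (log2 2.77, adjusted p = 0.0613), Notch3, a receptor needed by mural cells, at 81.8 ± 19.2 and 119 ± 28.5 CPM, and P2ry14, a nucleotide receptor, at 658 ± 88.5 and 415 ± 98.2 CPM (adjusted p = 0.0732). Art3, Plxdc1 and Steap4 were at most 3.17 CPM in WT.

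Genes of the signals that recruit pericytes to vessels moved in both directions. Of 28 ligands, receptors and targets, all tested, 3 rose and 1 fell, where 7.61% of all genes were called. At an unadjusted p under 0.05 there were 8 above and 5 below, beside 25.2% of all genes, and the groups did not overlap for 20, beside 57.1%. Their median log2 change was 0.28. The ligand gene Pdgfa rose from 17.6 ± 0.00707 to 27.0 ± 2.01 CPM (SD, n = 2, 1.53-fold, edgeR adjusted p = 0.0322), and the growth factor gene Hbegf from 6.15 ± 0.374 to 11.6 ± 2.94 CPM (1.88-fold). S1pr3 is the remaining higher gene, while its relative S1pr1 fell 1.39-fold (adjusted p = 0.0471). Pdgfb, the endothelial ligand of Pdgfrb, had 68 to 133 reads per library and did not pass. Of the others that did not pass, the PDGF receptor gene Pdgfra was at 554 ± 60.3 CPM in WT against 365 ± 58.1 (edgeR adjusted p = 0.0526), and Eng, a co-receptor for TGF-beta ligands, at 957 ± 21.9 against 632 ± 167 (adjusted p = 0.0951). Angpt2, an endothelial growth factor that loosens pericyte contacts, had a log2 difference of -1.21 (adjusted p = 0.111) and was called by DESeq2 and limma-voom, as was Foxs1. Hey1, a Notch target, was at 9.39 ± 1.44 CPM in WT against 14.8 ± 0.992 (adjusted p = 0.0647), and the receptor gene Notch1 at 133 ± 18.4 against 184 ± 24.8 (adjusted p = 0.0870). Pdgfa, Hbegf and S1pr1 were no longer called when WT A, WT B or CKO B was left out.

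Markers of neighbouring cell types were set beside the pericyte markers, as the reporter gate could hold these cells. For reading the counts below, 4.85% of all genes tested were higher and 2.75% lower. Log2 changes lay above 0 for 7461 of all 15210 genes tested. Of 12 smooth muscle markers tested 1 was higher (Cnn1, a contractile protein gene, 1.47-fold) and 0 lower, and their summed level was 8191 to 9158 CPM in WT and 7808 to 9296 in CKO. Of 11 alveolar myofibroblast markers none rose and 1 fell (Wnt5a, a ligand gene, 1.72-fold), with a median log2 change of -0.28. Their log2 changes lay above 0 for 4 and below for 7. Their sums, mostly Eln, were 39244 and 41034 CPM in WT and higher in CKO, at 45079 and 42515 CPM. All 11 alveolar fibroblast markers had log2 changes above 0, 3 of them passing (Ces1d, Gpc3 and Fgf10), and their summed level was 582 to 620 CPM in WT but 926 in CKO A and 1651 in CKO B. Of 10 adventitial fibroblast markers 5 were higher and 0 lower, with sums of 1692 to 1761 CPM in WT and 2030 to 2472 in CKO. Mfap5 of that list (edgeR adjusted p = 0.0512) and Tcf21 of the alveolar fibroblast list (edgeR adjusted p = 0.0542) were higher in both CKO libraries and did not pass. When either WT library was left out the calls of Cnn1, Ces1d, Gpc3, Fgf10, Dpt, Clec3b and Serpinf1 ended, while Pi16 and Igfbp6 were called in each fit without 1 library. Wnt5a lost its call without WT A and Ces1d also without CKO B. The part of these fibroblast shifts in the values of the pericyte markers was not tested.

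Of 14 endothelial markers 1 was higher (Ecscr, a cell surface gene of endothelium, 2.43-fold) and 0 lower. Here and for the next lists, the shares over all genes tested were 4.85% higher and 2.75% lower. The endothelial sums were 134 and 183 CPM in WT and 237 and 153 in CKO, which overlapped. Pecam1 and Cdh5, which define endothelium, were at 15.8 to 29.0 and 28.1 to 52.3 CPM, and CKO A was the highest library for both. The part of endothelial RNA in the Mcam values was not tested. Of 10 tested immune cell markers 4 were higher (Laptm5, Fcer1g, Cd74 and Csf1r) and 0 lower, with sums of 35.7 to 46.9 CPM in WT and 52.8 to 79.3 in CKO. Ecscr, Laptm5, Fcer1g and Csf1r lost their calls when either WT library was left out, Csf1r also without CKO B, and Cd74 was called in each of these fits. No epithelial marker of 12 and no mesothelial marker of 5 tested passed in edgeR, and 0 of either did so at an unadjusted p under 0.05. Of 4 Schwann cell markers tested 2 were higher (S100b and Cdh19), both calls lost without WT B and S100b also without WT A.

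**Figure D4:**
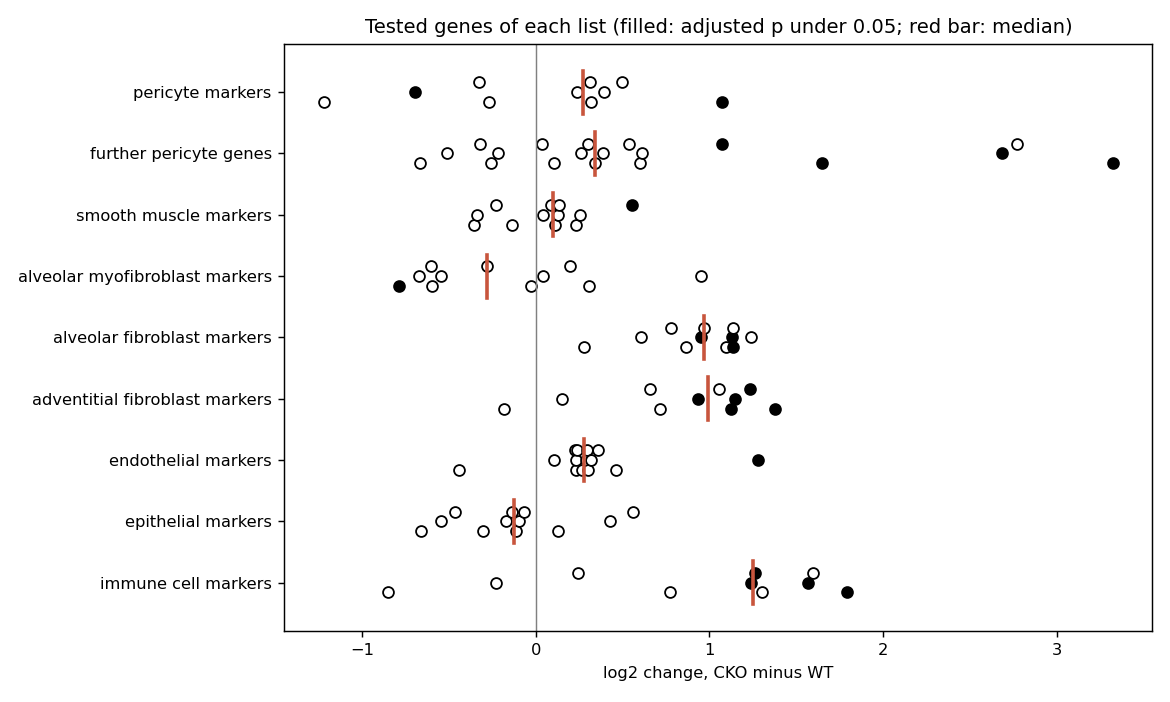
Log2 change, CKO minus WT (horizontal axis), of each tested gene. Rows are the 10 pericyte markers, the further pericyte genes and lists of neighbouring or other cells. Circles are filled where the adjusted p was under 0.05, and the list median is in red. The 10 pericyte markers lie on both sides of 0, from -1.22 to 1.07, while all 11 alveolar fibroblast markers lie above 0.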

How the data were processed

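RNA-seq read counts per gene of 2 WT and 2 CKO libraries were used as deposited by the authors, with no normalization. Per the submitters' processing notes, which give no order, the tools were STAR, Trimmomatic 0.36, cutadapt 2.5, FastQC 0.11.8 and edgeR 3.28.1, on GRCm38.p6. How reads were counted, and whether by strand, is not given in the sources used here. The authors' deposited log2 fold changes and p-values, per the file headers, are quoted only where named. The deposited table's 4 other columns of per-sample values were left unused. Columns named Control and Mutant were read as WT and CKO.

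Counts were analysed in R 4.3.3 with edgeR 4.0.16 (filterByExpr with a minimum count of 10, TMM scaling, glmQLFit and glmQLFTest with robust estimation), and p-values were adjusted by Benjamini-Hochberg over 15210 genes with a threshold of 0.05. edgeR's common biological variation (BCV) was 0.160. Standard errors are the log2 change over the square root of F. Coordinates and merged exon lengths came from the GENCODE M21 annotation of GRCm38 (99.8% of genes found by Ensembl identifier), and promoter windows (250 bases before to 50 after a start) from RefSeq. The authors' deposited counts name a later GENCODE release than M21. Each read was worth 0.0377 to 0.0439 CPM. The fit was also run on simulated counts with known changes, the outcome of which is not reported here. Alternatives were DESeq2 1.42.0, limma-voom (limma 3.58.1), scaling by RLE or by library size only, a low-count filter left out or set at a mean of 1 CPM, a stricter adjusted p (0.01), and fits without each library in turn.

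The members and the lists were chosen with earlier results of these data known. All members are named. By rule, called genes of the other lists could be named, and uncalled ones where they were among a list's 4 lowest p or a sentence turned on them, and not all of these are named. Foxs1, P2ry14, Pde5a, Notch1, Eng, Angpt2, Mfap5, Hey1, Rgs4, Gucy1a2, Gucy1b2, Ndufa4, Kcnj11, Abcc8, Hif1a, Prkg1, Pdgfb, Notch3, Ddx3y, Xist, Pecam1, Cdh5, Shmt2, Gm10687 and 5330439B14Rik were chosen after their values were seen. Cd248 was likewise chosen after its values were seen. Of Aldoa, which has more than 1 row, the row with an Entrez identifier was used. Of the genes with a pattern most like Mcam, 1 is not reported here.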

Additional observations from a re-analysis of the deposited data

How the results depend on the processing

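No paired analysis was possible because the count columns carry no replicate number, so a replicate block was not run. The sample titles number the replicates within each genotype and do not state that equal numbers form pairs. Over all genes 1157 were called, 2459 with no filter on low counts and 241 at an adjusted p under 0.01. Leaving out 1 library gave 339 (without WT B) to 1842 (without CKO A). Of the pericyte markers 2 were called with all libraries, and 1 in limma-voom (Gucy1a1), 4 with no filter (Abcc9 and Cspg4 added) and 0 at an adjusted p under 0.01. Without WT A and without WT B 0 were called, without CKO B 1 and without CKO A 5, in fits that assume that a lone library varies like the other group. In those fits 3.64%, 2.14%, 6.42% and 11.3% of all genes were called. No member changed direction in the 10 settings for its log2 change, and Gucy1a1 ran from -0.81 to -0.55 (called in 8 of 10) and Ndufa4l2 from 0.95 to 1.24 (called in 6 of 10). Log2 changes of other genes turned sign for Msln in limma-voom (-0.24) and Gucy1a2 in limma-voom (-0.0669), for which the cause was not tested, and, when 1 library was left out, for Ptprb (-0.0277 to 0.69), Cdh1 (-0.0687 to 1.27), Hopx (-0.59 to 1.1998), Sftpa1 (-1.26 to 0.86), Lrrn4 (-1.47 to 3.59), Msln (-4.22 to 3.14), Upk3b (-1.85 to 2.79), Prkg1 (-0.146 to 0.26), Rgs4 (-0.358 to 0.93), Gucy1a2 (-0.691 to 0.65), Gucy1b2 (-1.39 to 0.29), Ndufa4 (-0.00142 to 0.36), Pecam1 (-0.174 to 0.68) and Cdh5 (-0.101 to 0.59). Cox4i2, Ndufa4l2 and Higd1b had 15 to 164 reads per library, which limits their precision.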

Other observations

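The gene length in the authors' deposited table was not that of the merged exons. For 98.5% of the genes matched in GENCODE M21 it equalled the exon bases summed over all transcripts plus 1 base per exon, so an exon used by several transcripts counted each time. The deposited length was 4.16 times the merged exon length for Abcc9 (34866 against 8373 bases) and 1.06 times for Rgs5 (4828 against 4546 bases), with a median of 1.22 over all matched genes. A level per deposited length therefore places Abcc9 lower against Rgs5 than a level per merged exon does, while the comparison of a gene between libraries is not touched by its length.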
